A study of Caenorhabditis elegans with 2 samples.

Results

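The genes described here encode translation factors and aminoacyl-tRNA synthetases of the nematode Caenorhabditis elegans, and the measurement is how strongly the B0310.2 protein was found at their promoters in early embryos. They were chosen by name alone, as the protein-coding genes of assembly WBcel235 whose names begin with eif, eef, ife, ifg, iftb or with any letter followed by ars, then a hyphen and a digit. This gave 69 of the 19973 nuclear protein-coding genes, of which 37 are translation factors and 32 are synthetases. The assay was chromatin immunoprecipitation and sequencing with an antibody to GFP. The embryos came from strain OP642, which carries the unc-119 allele tm4063 on chromosome III and the transgene wgIs642, from which B0310.2 is made with GFP and FLAG tags at its C-terminus; they were whole organisms of mixed sex, taken 0 h after bleach synchronisation. There were 2 biological replicates of this 1 group, with no other strain, stage or treatment to compare. The labels do not state the promoter that drives the tagged protein, and the region lists hold no expression values with which the stage could be checked.

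Translation begins when initiation factors bring the small ribosomal subunit, the initiator tRNA and the mRNA together. Elongation factors then deliver charged tRNAs and move the ribosome along the message. Aminoacyl-tRNA synthetases charge each tRNA with its amino acid, in the cytoplasm and, by separate or shared genes, in mitochondria. Early embryos rely at first on maternally supplied mRNAs of these genes.

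For each gene the strongest region with its summit in a promoter window was taken, the window reaching from 1000 bp before to 300 bp after any annotated protein-coding transcript start. Strength is the authors' signal value, whose scale is not stated, so lists are compared by rank and rank 1 is the strongest. The pooled list, made from both replicates, and the list of each replicate hold 30000 regions apiece, most of them weak. Such a region was present for 44 of the 69 genes (63.8%) in the pooled list, against 38.3% of all protein-coding genes. Regions among the first 3000 of the pooled list were found at 15 of the 69 (21.7%), against 6.87% of all genes. The authors' optimal list, which keeps the 642 regions that passed their reproducibility threshold, reached 4 of the 69 (5.80%), against 1.85% of all genes. The 15 genes in the first 3000 had 15 distinct regions, so that no region was counted for more than 1 of them. Of these 15 genes, 13 were factors and 2 were synthetases.

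**Figure D1:**
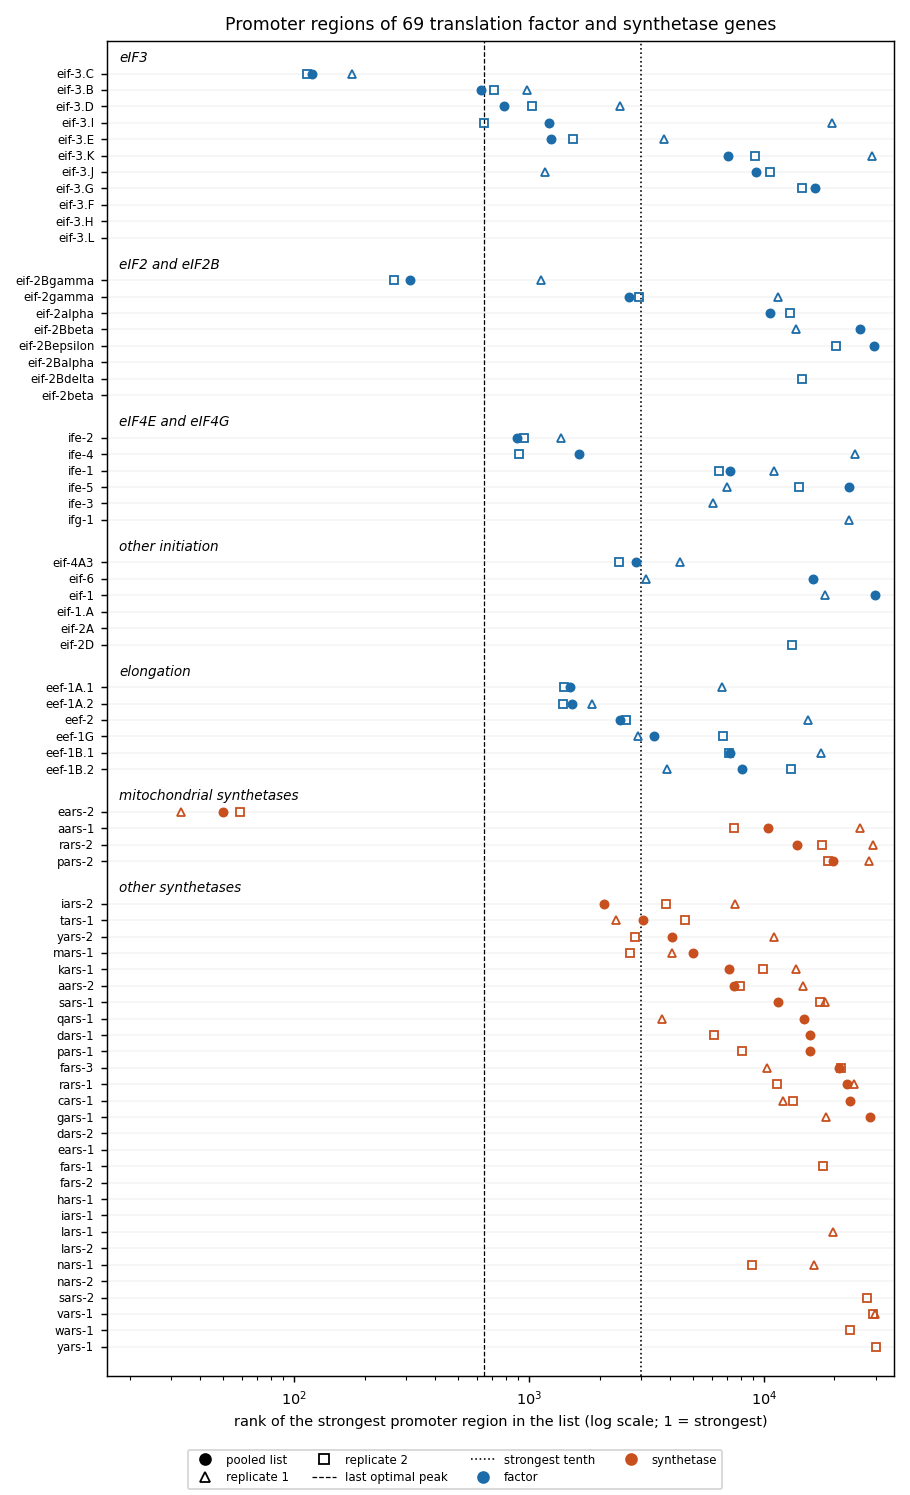
Rank of the strongest promoter region of each of the 69 genes, by class, on a log axis where the strongest regions lie to the left. Filled circles are the pooled list, triangles replicate 1 and squares replicate 2; a gene without a mark has no promoter region in that list. The dashed line is rank 642 and the dotted line rank 3000. The synthetase ears-2 lies furthest to the left at rank 50, and 13 of the 15 genes left of the dotted line in the pooled list are factors.

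The sequence under the summits is shown for 7 of these 15 genes, since the strong regions carry the result. Of the other 8, 7 lie on a chromosome whose sequence is not shown here, and the summit at eef-1A.2 lay in an annotated exon. Each run takes 50 bases on either side of the pooled summit, less any that lie in an annotated exon, and is read 5′ to 3′ on the strand of the gene from the RefSeq sequence of assembly WBcel235, which is ce11. Capitals mark the 4 bases GCGC, which were picked out after these sequences had been seen.
ears-2, chrIV:390469-390551, minus strand: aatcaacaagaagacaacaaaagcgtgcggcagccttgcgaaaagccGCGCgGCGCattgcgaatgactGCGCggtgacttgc
eif-2Bgamma, chrII:6968348-6968391, minus strand: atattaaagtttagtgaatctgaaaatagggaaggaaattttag
eif-3.B, chrII:14795148-14795248, plus strand: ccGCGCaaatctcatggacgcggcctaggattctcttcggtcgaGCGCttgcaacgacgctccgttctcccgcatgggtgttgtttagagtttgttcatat
eif-3.D, chrIII:8971787-8971887, minus strand: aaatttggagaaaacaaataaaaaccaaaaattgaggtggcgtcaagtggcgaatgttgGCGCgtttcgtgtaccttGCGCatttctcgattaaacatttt
ife-2, chrX:382852-382952, minus strand: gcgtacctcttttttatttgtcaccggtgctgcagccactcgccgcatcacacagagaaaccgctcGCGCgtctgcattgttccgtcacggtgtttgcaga
eef-1A.1, chrIII:6972110-6972210, minus strand: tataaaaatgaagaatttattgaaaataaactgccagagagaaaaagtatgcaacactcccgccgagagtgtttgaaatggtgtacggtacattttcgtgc
ife-4, chrX:1103812-1103912, plus strand: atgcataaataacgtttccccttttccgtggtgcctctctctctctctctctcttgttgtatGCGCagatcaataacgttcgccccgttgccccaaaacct

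The runs differ in base composition. G and C made up 56.6% of the ears-2 run, 55.4% of the ife-2 run, 54.5% of the eif-3.B run, 48.5% at ife-4, 38.6% at eif-3.D and 36.6% at eef-1A.1. In the eif-2Bgamma run, shortened to 44 bases by the exons beside it, they made up 25%. GCGC occurred 3 times at ears-2, 2 times each at eif-3.B and eif-3.D, 1 time each at ife-2 and ife-4, and not at eef-1A.1 or in the eif-2Bgamma run. In the full stretch of 50 bases on either side of the summit, exons included, it was present at 9 of the 15 genes in the first 3000 (60%), eif-2Bgamma among them, against 34.1% of the 1120 regions of that strength at promoters of all protein-coding genes. Over all 44 genes with a region it was present at 14 (31.8%), against 21.0% of 6699 promoter regions. The median G and C content of the windows was 46.5% for the 15 genes and 45.5% for the 1120 regions. Because GCGC was chosen from the runs shown, the shares that include them do not measure an enrichment and are a description only. Among the 15 genes, those whose runs are not shown had it at eif-3.C, eef-2 and eif-2gamma. It was absent at eif-3.I, eif-3.E, eef-1A.2, iars-2 and eif-4A3.

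Motifs known from earlier results of these data to be frequent at the peaks as a whole were searched on both strands of the same stretches. The motif AGAGCG was present at 1 of the 44 genes, eef-2, against 3.91% of all promoter regions. The second motif searched was AGCGCG, which contains the 4 bases described before, and it was present at none of the 44, against 3.21%. The remaining motif, CGAACC, was also present at none, against 2.30%. Any of the 3 was present in 8.64% of all 6699 promoter regions and in 27.6% of the 283 that were optimal peaks. None of the 4 optimal peaks at these genes held any of them within 50 bp of the summit.

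eIF3, the largest initiation factor, is a complex that binds the small ribosomal subunit and helps recruit mRNA. Of its 11 genes named eif-3, 8 (72.7%) had a promoter region in the pooled list, against 38.3% of all genes. A region in the first 3000 was present at 5 (45.5%), against 6.87% of all genes. The strongest was at eif-3.C, which encodes a core subunit. Its region (I: 9979682 to 9980157) had a signal of 283.4 and ranked 120 in the pooled list, 176 in replicate 1 and 114 in replicate 2. Its summit lay 258 bp before the start of eif-3.C, between genes, and in the promoter window of no other protein-coding gene.

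The region at eif-3.B, another core subunit, was the weaker of the 2 optimal peaks at eIF3 genes. It lay at II: 14794960 to 14795435 with a signal of 140.9, close to the lowest signal of the optimal list, 139.6. It ranked 626 in the pooled list, 987 in replicate 1 and 708 in replicate 2, and so was outside the first 642 of either replicate alone.

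The next gene in rank was eif-3.D, whose protein can bind mRNA caps in human cells. Its signal was 129.8 and its rank 788 in the pooled list, 2435 in replicate 1 and 1037 in replicate 2, just outside the optimal list. The summit lay 259 bp before eif-3.D but only 55 bp from the start of the neighbouring gene R08D7.4. The eif-3.E region, at 215 bp before its gene, ranked 1246, 3772 and 1536 in the pooled list, replicate 1 and replicate 2. These 2 regions ranked lower in replicate 1 than in replicate 2.

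The replicates differed most at eif-3.I among the eIF3 genes in the first 3000. Its region ranked 1221 in the pooled list and 644 in replicate 2, whereas the strongest promoter region of replicate 1 was a different one, 2250 bp away at another transcript start, and ranked 19521. The remaining eIF3 genes were weaker. eif-3.K ranked 7036 in the pooled list, eif-3.J 9239 and eif-3.G 16498. At eif-3.J a region inside the gene ranked 1176 in replicate 1, but the strongest one of replicate 2 was elsewhere in the window and ranked 10585. No list held a promoter region for eif-3.F, eif-3.H or eif-3.L.

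eIF2 carries the initiator tRNA to the ribosome as a complex with GTP, and eIF2B is the exchange factor that reloads eIF2 with GTP. Of their 8 genes, 5 (62.5%) had a region in the pooled list, against 38.3% of all genes. A region in the first 3000 was present at 2 (25%), against 6.87% of all genes. In replicate 1 only 3 of the 8 (37.5%) had any region, against 37.9% of all genes. The strongest was at eif-2Bgamma (II: 6968141 to 6968616, signal 189.4), at rank 313 in the pooled list, 1128 in replicate 1 and 267 in replicate 2. Its summit lay 731 bp before eif-2Bgamma, in an intron of the upstream gene C15F1.5. It also lay within 200 bp of sup-39 and of a locus named mir-1831, both annotated as snRNA genes. This was the only one of the 44 regions within 200 bp of a small RNA gene of the tRNA, snoRNA or snRNA kinds, pseudogenes of tRNAs included.

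The gene of the GTP-binding subunit, eif-2gamma, had a region 100 bp before its start (signal 91.0). It ranked 2671 in the pooled list and 2945 in replicate 2, but 11497 in replicate 1. The other 3 ranked lower in the pooled list, eif-2alpha at 10642, eif-2Bbeta at 25696 and eif-2Bepsilon at 29412. With the wider window or the 1 bp overlap that are described for ife-3, eif-2alpha too was in the first 3000. The eif-2Bdelta gene had a region in replicate 2 alone (rank 14575), and eif-2beta and eif-2Balpha had none in any list.

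The eIF4E proteins bind the cap at the start of mRNAs, and eIF4G is the scaffold that joins them to the ribosome. Of these 6 genes, 2 (33.3%) were in the first 3000, against 6.87% of all genes. These were ife-2 and ife-4, both on the X chromosome. The ife-2 region lay 193 bp before the gene (signal 124.3) and ranked 895 in the pooled list, 1376 in replicate 1 and 953 in replicate 2, so it was high in all 3. The ife-4 region, 350 bp before its gene (signal 103.6), ranked 1636 in the pooled list and 913 in replicate 2 but 24495 in replicate 1. The replicate regions at ife-4 had summits within 47 bp of the pooled one, so the same place was ranked very differently.

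The 3 other eIF4E genes and the eIF4G gene ifg-1 were weaker. In the pooled list ife-1 ranked 7157 and ife-5 ranked 22967. At ife-3, the relative of human eIF4E that worm embryos need, replicate 1 alone held a region (rank 6082), as it did at ifg-1 (rank 23137). With a window of 2000 bp before to 500 bp after the start, or where a 1 bp overlap with the window was enough, ife-3 was in the first 3000 of the pooled list.

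Elongation factor genes each had a region in each of the 3 lists, 6 of 6. Of all genes, 38.3% had one in the pooled list, 37.9% in replicate 1 and 38.4% in replicate 2. eef-1A.1 and eef-1A.2 encode near-identical copies of the factor that delivers charged tRNAs to the ribosome. eef-1A.1 ranked 1497 in the pooled list, 6613 in replicate 1 and 1408 in replicate 2. Its summit lay at -448 bp relative to the start of the gene and 93 bp from the start of rfc-4, a replication factor gene on the other side. eef-1A.2 ranked 1532, 1866 and 1396 in the same order of lists, with its summit 261 bp before the gene inside a noncoding RNA gene, R03G5.8. The sources used here do not give how reads that align to several places were treated, and the part of such reads in these ranks was not tested.

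eef-2 encodes the factor that moves the ribosome along the mRNA. Its summit lay 29 bp before the gene and ranked 2453 in the pooled list, 15412 in replicate 1 and 2596 in replicate 2. Next in the pooled list came eef-1G, annotated as elongation factor 1-gamma, at 3421. The exchange factors that recharge eEF1A followed at 7153 for eef-1B.1 and 8049 for eef-1B.2. At eef-1G replicate 1 ranked higher (2910) than replicate 2 (6701), the reverse of the order at eef-2 and both eef-1A genes.

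Of the remaining 6 initiation genes, 3 (50%) had a region in the pooled list, against 38.3% of all genes. In the first 3000 there was 1 (16.7%), against 6.87% of all genes. eif-4A3, which encodes an RNA helicase of the exon junction complex, was the only one in the first 3000 (rank 2849, 4399 and 2431 in the pooled list, replicate 1 and replicate 2). Its summit lay nearer to the start of vps-20, at 183 bp, than to eif-4A3, relative to whose start it was at -276 bp, and the region that replicate 1 ranked at 4399 did not overlap it. eif-6, whose protein keeps the ribosomal subunits apart, ranked 16216 in the pooled list and 3145 in replicate 1 and had no region in replicate 2. eif-1, which acts in start codon choice, ranked 29752. The genes eif-1.A and eif-2A had no region in any list, and eif-2D had one in replicate 2 alone (rank 13145).

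Among the synthetases, ears-2 stood alone. It is annotated as the mitochondrial glutamyl-tRNA synthetase, and its region was the strongest of all 69 genes. The region (IV: 390452 to 390570) was 119 bp wide, against 476 bp for most regions of the pooled list, and its signal was 411.8. It ranked 50 in the pooled list, 33 in replicate 1 and 59 in replicate 2. The summit lay 33 bp before the start of ears-2, and replicate 2 placed it at the same base while replicate 1 placed it 17 bp away. The window of uncp-18 also held this summit, but ears-2 was the nearer gene.

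The second synthetase in the first 3000 was iars-2, an isoleucyl-tRNA synthetase. It ranked 2084 in the pooled list but 7555 in replicate 1 and 3843 in replicate 2, so it was outside the first 3000 of either replicate. Its summit lay at -237 bp relative to the start of iars-2, in a coding exon of C25A1.20, whose own start was 154 bp away. Just below the first 3000 were tars-1, yars-2 and mars-1, the genes of a threonyl-, a tyrosyl- and a methionyl-tRNA synthetase, at ranks 3065, 4067 and 4996. tars-1 was in the first 3000 of replicate 1 (rank 2354), and yars-2 and mars-1 were in that of replicate 2 (ranks 2823 and 2703). None of these 3 was in the first 3000 of both.

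The other 13 synthetases with a region in the pooled list ranked from 7084 (kars-1) to 28269 (gars-1). They included the other 3 of the 69 genes that RefSeq annotates as mitochondrial synthetases, aars-1 at 10428, rars-2 at 13826 and pars-2 at 19626. A rank in the first 3000 was seen at 1 of these 4 mitochondrial synthetase genes, ears-2 included (25%), against 6.87% of all genes. RefSeq annotates a further mitochondrial synthetase gene that was not found by the naming rule and was not analysed here. The RefSeq products of some other synthetases, iars-2 among them, name no compartment, so the mitochondrial set may not be complete. No region was found in the pooled list for dars-2, ears-1, fars-1, fars-2, hars-1, iars-1, lars-1, lars-2, nars-1, nars-2, sars-2, vars-1, wars-1 or yars-1. Of these 14, nars-1 and vars-1 had a region in each replicate, fars-1, sars-2, wars-1 and yars-1 in replicate 2 alone and lars-1 in replicate 1 alone.

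More factors than synthetases had a strong region, while the shares with any region were closer. Any promoter region in the pooled list was present at 26 of 37 factors (70.3%) and 18 of 32 synthetases (56.2%), against 38.3% of all genes. In replicate 1 the shares were 67.6% and 59.4%, and in replicate 2 the order turned, with 25 factors (67.6%) and 22 synthetases (68.8%). The first 3000 regions reached 13 of 37 factors (35.1%) and 2 of 32 synthetases (6.25%), against 6.87% of all genes, so the synthetases were at the level of genes in general. In replicate 1 the counts were 8 of 37 (21.6%) and 2 of 32 (6.25%), against 5.96% of all genes. In replicate 2 they were 13 of 37 (35.1%) and 3 of 32 (9.38%), against 6.99%. In the first 3000 the factors had the higher share in both replicates. With 1 group, and genes that are no replicates of each other, the difference between the classes was not tested.

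**Figure D2:**
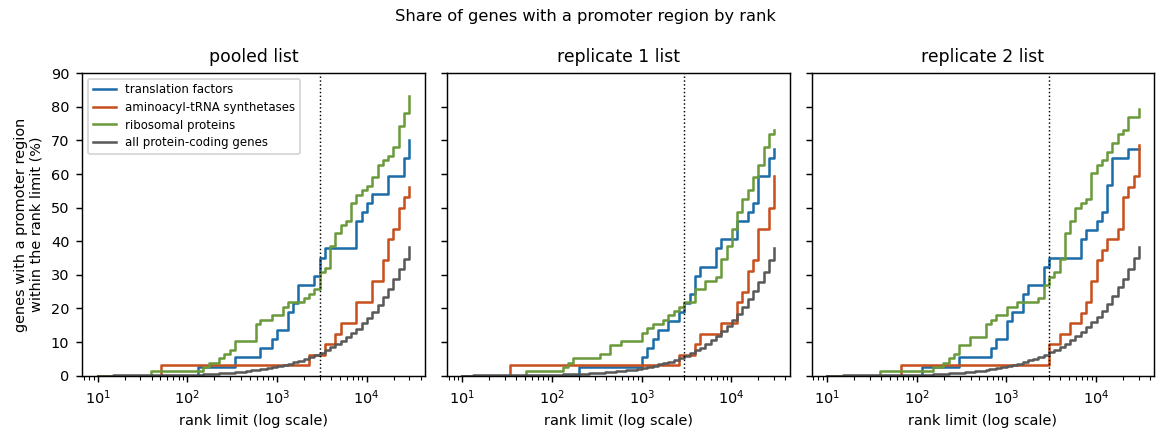
Share of genes whose strongest promoter region lies within a given rank, in the pooled list and in each replicate, on a log rank axis. Lines are the 37 factors, the 32 synthetases, 78 ribosomal protein genes and all 19973 protein-coding genes, and the dotted line is rank 3000. At rank 3000 of the pooled list the factors are at 35.1%, the ribosomal protein genes at 30.8%, the synthetases at 6.25% and all genes at 6.87%.

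Counting genes without a region as ranking after the whole list, the median rank in the pooled list was 9239 for factors and 22960.5 for synthetases. The medians were 15412 and 26902 in replicate 1 and 12880 and 18378.5 in replicate 2. For all protein-coding genes most had no region, so that no such median exists. Among genes that did have one, the median rank was 3135 for 26 factors, 12684 for 18 synthetases and 11818 for 7659 genes of all kinds. In replicate 1 these medians were 6082, 14668 and 12046, and in replicate 2 they were 2945, 10685 and 11489. The factors came first in each list, and the synthetases came after all genes in the pooled list and replicate 1 but before them in replicate 2.

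Any promoter region was present for 44 of the 69 genes in replicate 1, against 37.9% of all genes, and for 47 in replicate 2, against 38.4%. A region in all 3 lists was present for 34 of the 69 genes, and the share of all genes with one in all 3 was not computed. In no list was there a region for 14 of the 69, against 47.1% of all genes. At all 15 genes in the first 3000 the strongest region of replicate 2 overlapped the pooled one by at least 1 bp, and at 13 of them that of replicate 1 did too. The median distance from the pooled summit was 4 bp in replicate 2 and 17 bp in replicate 1. Among all 44 genes the overlap held for 38 in replicate 2 and 32 in replicate 1. The pooled list is made from the reads of both replicates, so these overlaps are no independent measure of their agreement. The share of all protein-coding genes with such an overlap was not computed, so the overlaps cannot be called particular to these genes.

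In the first 3000 of both replicates were 7 of the 69 genes (10.1%), against 3.25% of all genes. These were ears-2, eif-3.C, eif-2Bgamma, eif-3.B, eif-3.D, ife-2 and eef-1A.2. With as many regions of a replicate as there are optimal peaks, 642, replicate 1 reached 2 of the 69 genes, ears-2 and eif-3.C, against 1.51% of all genes. Replicate 2 reached these and eif-2Bgamma, 3 of 69, against 1.91% of all genes. Across the 36 genes with a region in both replicates the ranks were correlated with Spearman's rho = 0.576, and across 4924 such genes of all kinds with 0.457. These points are genes of the same 2 libraries and share their windows, so no p is given. Of the 15 genes, 14 ranked better in replicate 2 than in replicate 1, all but ears-2. Among all 1372 genes in the first 3000 of the pooled list the share was 66.0%.

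**Figure D3:**
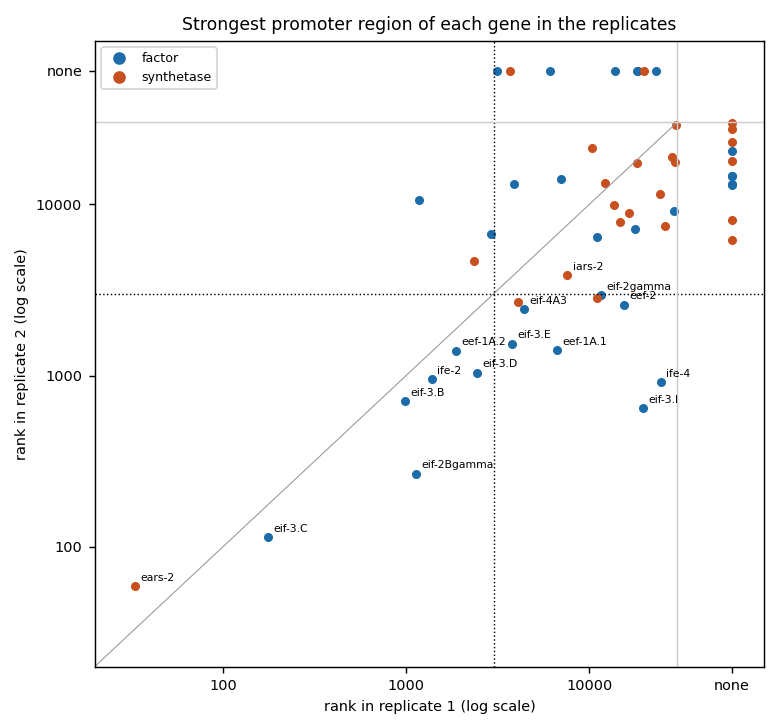
Rank of each gene's strongest promoter region in replicate 1 and in replicate 2, both on log axes, for genes with a region in either. Blue points are factors and orange points synthetases, points at "none" have no region in that replicate, dotted lines are rank 3000 and the diagonal marks equal ranks. Names are given for the 15 genes in the first 3000 of the pooled list, of which all but ears-2 lie below the diagonal, and ife-4 and eif-3.I lie furthest from it.

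The summits at these genes mostly lay before the transcript starts. So does most of the window, which reaches 1000 bp before and 300 bp after a start. Relative to the nearest transcript start of the gene, with negative values upstream, the median position for the 44 genes was -227.5 bp, with quartiles at -355 and -61 bp. All 7659 genes with a region had nearly the same median, -227 bp, but a wider spread, with quartiles at -556 and 15.5 bp. The summit lay in the 500 bp before a start at 32 of the 44 genes (72.7%), against 45.1% of the 7659, and at 76.9% of the 26 factors and 66.7% of the 18 synthetases. In the first 3000 it did so at 14 of 15 genes, against 54.1% of the 1372 genes of all kinds. The exception was eif-2Bgamma.

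**Figure D4:**
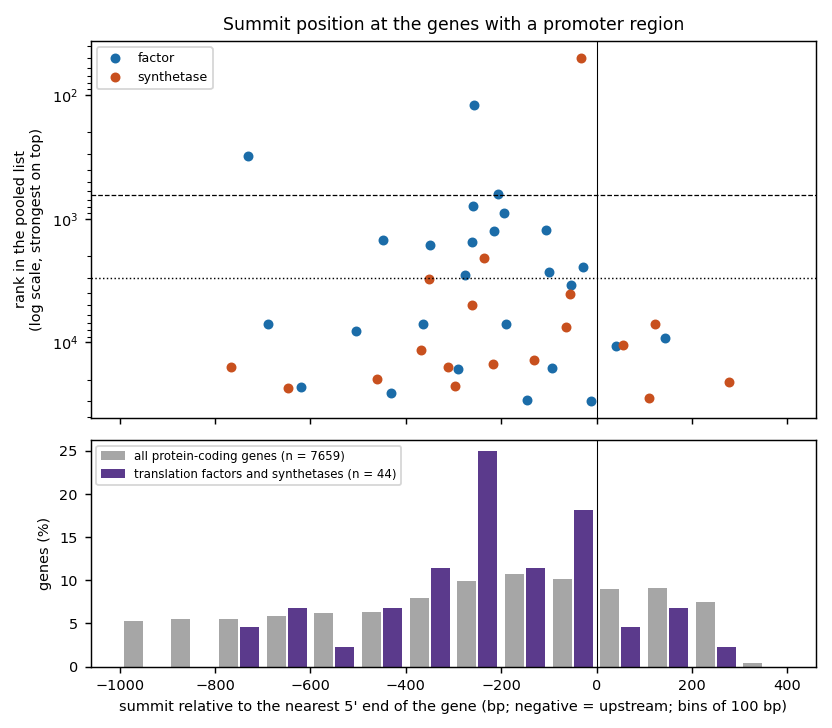
Upper panel: rank in the pooled list (log axis, strongest on top) against the position of the summit relative to the gene's nearest transcript start, for 26 factors and 18 synthetases; the dashed line is rank 642 and the dotted line rank 3000. Lower panel: share of genes per bin of 100 bp for the 44 genes and for all 7659 genes with a region, of which 44 with a summit further than 400 bp after the start are not drawn. The bin from 300 to 200 bp before the start holds 25% of the 44 genes and 9.94% of all genes.

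A summit in a window does not assign a region to 1 gene. Of the 44 regions, 21 also lay in the promoter window of another protein-coding gene, as did 8 of the 15 in the first 3000 and 1 of the 4 optimal peaks. The shares were 47.7% and 53.3% for the 44 and the 15, against 26.4% of the 7659 genes with any region and 36.1% of the 1372 in the first 3000. For the optimal peaks the share was 25%, against 45.1% of the 370 genes of all kinds that had one. When each region was given only to the gene with the nearest start, 10 of 37 factors and 1 of 32 synthetases remained in the first 3000. The genes eef-1A.1, eif-3.D, eif-4A3 and iars-2 left it. Under that rule the share of all protein-coding genes in the first 3000 also fell, from 6.87% to 5.52%. Many worm genes follow another gene closely on the same strand. Such a neighbour within 500 bp upstream was present for 8 of 37 factors and 11 of 32 synthetases (34.4%), against 20.9% of all genes. Among the 21 synthetases without a close neighbour 12 had a region (57.1%) and 1 was in the first 3000 (4.76%). Among the 29 factors without one the counts were 19 (65.5%) and 10 (34.5%). Of all genes without one, 37.1% had a region and 6.85% were in the first 3000. With a close neighbour, 6 of 11 synthetases (54.5%) and 7 of 8 factors (87.5%) had a region, against 43.1% of all such genes. In the first 3000 were 1 of these synthetases (9.09%) and 3 of these factors (37.5%), against 6.94%. The part of close neighbours in the difference between the classes was not tested.

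Other genes of the translation machinery were taken from a list of 36 names, of which 30 are in the annotation. They had regions at 23 of 30 (76.7%), against 38.3% of all genes. In the first 3000 of each replicate were 3 of the 30 (10%), against 5.96% of all genes in replicate 1 and 6.99% in replicate 2. In that of both replicates was 1 of the 30 (3.33%), against 3.25% of all genes. In the first 3000 of the pooled list were 4 (13.3%), against 6.87% of all genes. These were ifet-1, a partner of eIF4E that represses translation (rank 612, an optimal peak), larp-1, an RNA-binding protein (709), erfa-3, a release factor (781), and pab-2, a poly(A)-binding protein (2190). The ifet-1 region ranked 3625 in replicate 1 and 712 in replicate 2. Ribosomal protein genes, the genes most like the factors in function, had regions in the first 3000 at 24 of 78 (30.8%) in the pooled list, 21.8% in replicate 1 and 29.5% in replicate 2. Their shares were close to those of the factors in each list. For all protein-coding genes the shares were 6.87%, 5.96% and 6.99% in the same order of lists. In the optimal list the ribosomal protein genes had a larger share, 13 of 78 (16.7%), than the factors, 3 of 37 (8.11%). That of all genes was 1.85%. Mitochondrial ribosomal protein genes had 7 of 70 (10.0%) in the first 3000 of the pooled list, against 6.87% of all genes.

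**Figure D5:**
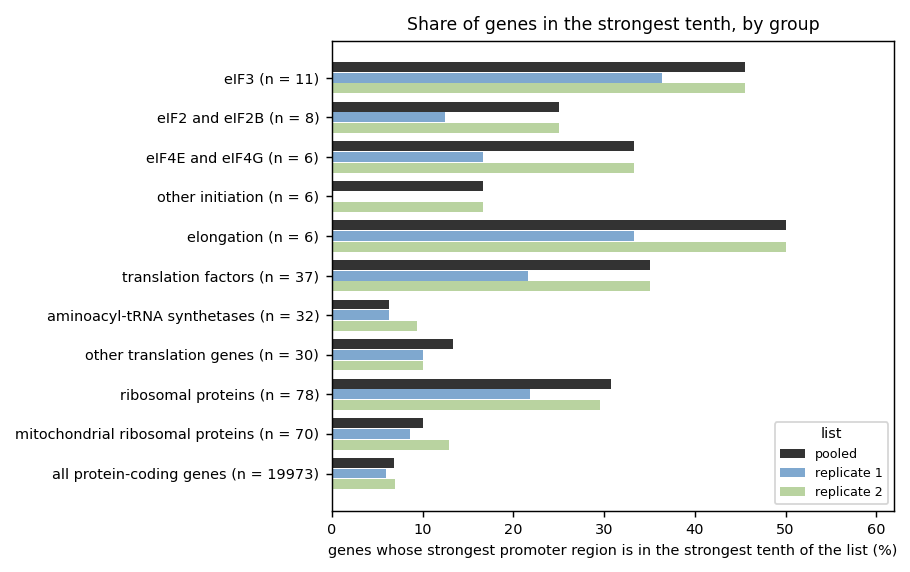
Share of genes whose strongest promoter region is among the 3000 strongest regions of a list, for the classes of factors, all factors, the synthetases and comparison groups, in the pooled list and in each replicate. Bars start at 0, and n is the number of genes in a group. The factors reach 35.1%, 21.6% and 35.1% in the pooled list, replicate 1 and replicate 2, and the synthetases 6.25%, 6.25% and 9.38%.

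Nuclear tRNA genes are given beside the synthetases by amino acid, which does not say which tRNAs a given synthetase charges. Of 607 nuclear tRNA genes with an annotated isotype, 248 (40.9%) had a region of the first 3000 within 200 bp, and the share ran from 23.1% for serine to 61.5% for cysteine. For glutamate and isoleucine, the amino acids of ears-2 and iars-2, the shares were 20 of 41 tRNA genes (48.8%) and 12 of 29 (41.4%). Because ears-2 is annotated as mitochondrial and only nuclear tRNA genes were counted, the glutamate tRNA genes are matched to it by amino acid alone. The tRNA genes were counted by a distance of 200 bp and the synthetases by the promoter window, so the shares of the 2 kinds of gene are not comparable and no difference between them was tested.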

How the data were processed

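Chromatin immunoprecipitation for GFP-tagged B0310.2 was sequenced in 2 samples, biological replicates of 1 group. The ce11 region lists deposited by the authors were the starting material: 30000 regions for each replicate and for the pooled replicates, each derived from the alignments and from 1 further file common to both replicates (the labels name a possible control experiment), and 642 optimal peaks that passed the authors' threshold on the irreproducible discovery rate, per the deposited file descriptions. Which caller, aligner and threshold were used is not given in the sources used here. The signal (column 7) and the −log10 q value are the authors' own values; regions were ranked by signal, and the −log10 q value was not used in any comparison. Read counts are not part of these lists; the sequencing depth behind each sample is therefore unknown, and intervals that would need it are left out. The labels call the samples biological replicates and do not say whether they came from separate cultures.

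All regions lie within the chromosome lengths of WBcel235, the sequence of ce11, so Ensembl release 115 gene models were used; coordinates are 1-based. Products of synthetases and tRNA isotypes came from RefSeq. Windows were assigned with Python 3.11.15, pandas 2.3.3 and numpy 2.4.6, and the assignment was tested on simulated summits planted at and beside the window edges. The ce10 lists were not used. No test was made: with 1 group of 2 samples, counts and medians are given beside those of all protein-coding genes, and no value is compared between lists except by rank. The genes and lists were chosen with earlier results of these data known. Named are all genes in the first 3000 regions of the pooled list, the strongest gene of each class, the genes next to the optimal threshold and all genes without a region. Other windows, each replicate alone, assignment to the nearest gene, overlap in place of the summit and leaving out regions near small RNA genes were tried.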

Additional observations from a re-analysis of the deposited data

How the results depend on the processing

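Each replicate alone gave 44 to 47 genes with a promoter region, 25 factors in either and 19 to 22 synthetases. As many regions as there are optimal peaks reached 2 to 3 genes in each replicate alone, 1 to 2 factors and 1 synthetase, and the first 3000 reached 10 to 16 genes, 8 to 13 factors and 2 to 3 synthetases. Limited to the first 3000, the count of genes with a region was 15, with 13 factors and 2 synthetases. A rank within 642 in all 3 lists was held by 2 of the 69 genes, 1 factor (eif-3.C) and 1 synthetase (ears-2), against 1.1% of all genes. A rank within 3000 in all 3 was held by 7 of the 69, 6 factors and 1 synthetase, against 3.15% of all genes. Without replicate 2, 7 of the 15 genes remained in the first 3000 and eef-1G, eif-3.J and tars-1 joined; without replicate 1, 14 remained. With regions given to the nearest gene, the synthetases in the first 3000 numbered 1 of 32, against 5.52% of all genes. The median rank of factors was 12880 to 15412 in single replicates, 23173 both with a window of 500 bp before to 100 bp after the start and with the nearest gene only, 7153 with 2000 bp before to 500 bp after, and 7157 when a 1 bp overlap was enough. That of synthetases was 18378.5 to 26902 in single replicates and 15254 with the wide window, and it could not be given with the narrow window or the nearest gene only, where most had no region. With the narrow window, and also without regions near small RNA genes, eif-2Bgamma left the optimal peaks and the first 3000; ife-3 and eif-2alpha joined the first 3000 with the wide window and with the 1 bp overlap. The other counts stayed within 1.5 times their value. The alternatives for the first 3000, like the 4 bases GCGC, were chosen after seeing the data. No paired analysis was possible because there is 1 group. The depth behind the regions is unknown, so a missing region was not detectable in these lists and does not show that binding is absent.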
